A study of Mus musculus with 11 samples.

Results

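ON bipolar cells were found in retinas of mice at postnatal day 10 (P10) by the genes that each cell held. A cell was taken as an ON bipolar cell when it had more than 300 genes, at least 1 unique molecular identifier (UMI, a tag that marks 1 captured RNA molecule) in 3 or more of the 7 genes Pcp2, Trpm1, Grm6, Isl1, Gng13, Prkca and Bhlhe23, and no UMI of Grik1, Gad1, Gad2 or Slc6a9. The rule took 1190 of 20033 cells with more than 300 genes. There were 116, 93 and 148 of them in the control mice, 115, 80 and 128 in the mice treated with streptozotocin (STZ), 116 and 138 in the STZ mice on the ω-3 diet, and 89, 120 and 47 in the STZ mice on the ω-6 diet. Since measured UMIs of these 11 genes chose the cells, their levels are given as a description and were not tested.

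Bipolar cells carry the signal of photoreceptors to the inner retina. In ON bipolar cells, glutamate released in the dark binds the receptor mGluR6, encoded by Grm6, which through the G protein subunit encoded by Gnao1 keeps the cation channel TRPM1 closed, and light reverses this, so that the cell depolarises. Rod bipolar cells, which express protein kinase C alpha (Prkca), take their input mainly from rods, and ON cone bipolar cells take theirs from cones. Bipolar cells are among the last neurons born in the retina, and their synapses are still forming at the age studied here.

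The RefSeq promoters of 3 of the 7 markers are shown because Trpm1 and Isl1 hold the core motif TAATCC of the transcription factors OTX2 and CRX, both made in these cells, and Grm6, which encodes the receptor itself, does not. The windows run from 250 bases before to 50 bases after the gene start in build GRCm38.p6, on the strand of the gene, and capitals mark the motif or its reverse complement GGATTA. They lie at chr7:64153585-64153884 (plus strand, Trpm1), chr13:116309639-116309938 (minus strand, Isl1) and chr11:50850435-50850734 (plus strand, Grm6). Trpm1 has another RefSeq promoter, at chr7:64185209-64185508 (plus strand), which holds no match and is not shown. Which of them these cells use was not tested.
Trpm1: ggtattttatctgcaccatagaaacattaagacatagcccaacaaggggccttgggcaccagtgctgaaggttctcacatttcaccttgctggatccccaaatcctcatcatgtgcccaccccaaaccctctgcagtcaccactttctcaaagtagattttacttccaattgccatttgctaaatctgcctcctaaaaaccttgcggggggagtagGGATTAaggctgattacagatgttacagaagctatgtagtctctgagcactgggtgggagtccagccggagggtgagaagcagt
Isl1: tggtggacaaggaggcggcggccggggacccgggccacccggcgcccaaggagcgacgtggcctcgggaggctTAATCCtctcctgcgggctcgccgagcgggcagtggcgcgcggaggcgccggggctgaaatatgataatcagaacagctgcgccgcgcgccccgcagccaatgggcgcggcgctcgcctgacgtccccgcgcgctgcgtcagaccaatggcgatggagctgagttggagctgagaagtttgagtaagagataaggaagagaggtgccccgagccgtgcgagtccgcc
Grm6: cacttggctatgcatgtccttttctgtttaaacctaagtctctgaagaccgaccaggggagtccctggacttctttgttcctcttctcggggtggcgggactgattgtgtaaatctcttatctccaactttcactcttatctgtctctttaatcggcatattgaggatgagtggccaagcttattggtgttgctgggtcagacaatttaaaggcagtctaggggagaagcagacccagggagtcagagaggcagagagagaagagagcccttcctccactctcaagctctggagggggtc
Both strands were searched, and the motif stood in 2320 of 32851 promoters, which is 7.06%. Counting a gene once when any of its promoters matched, 2199 of 27025 genes had a match (8.14%), against 2 of the 7 markers. A match shows only that these letters stand in the window.

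The mice were C57BL/6J pups, and 4 groups were compared. Control pups (n = 3) received the vehicle phosphate-buffered saline (PBS) and STZ pups (n = 3), the hyperglycemia-associated model of Phase I retinopathy of prematurity (ROP), received streptozotocin daily from P1 to P9, which destroys the insulin-producing cells of the pancreas. The labels call these pups littermates and name no enriched diet for them. Pups of the other two groups also received STZ, were littermates of each other, and were split between 2 cages in which the nursing dams ate feed enriched in ω-3 (n = 2) or in ω-6 (n = 3) long-chain polyunsaturated fatty acids (LCPUFA). Diet, cage and nursing dam therefore cannot be told apart. Pups of both sexes were used, per the study's methods, and whole retinas were dissociated without a sort. The sex of each mouse is not given in its label, so the diets may also differ in sex. Each mouse is 1 replicate, so the p-values below measure the spread between mice.

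The label was checked against genes the rule did not use. Of the 1190 cells, 73.7% held a UMI of Otx2, a transcription factor of bipolar cells and photoreceptors. It was also seen in 33.4% of the 11746 cells with 0 of the 7 markers and none of the 4 excluded genes. Those cells were shallower (median 1140 UMIs), so Otx2 alone tells the classes apart only in part. Rod bipolar genes were present. After each cell was thinned to 1000 UMIs, Sebox was seen in 10.3% of ON bipolar cells, 0.160% of amacrine-like cells and 0.181% of Müller-like cells, and Car8 in 23.1%, 2.88% and 0.272%. Before thinning, the shares with Sebox were 19.3%, 0.210% and 0.316%, with median depths of 2862 UMIs in ON bipolar cells, 4476.5 in amacrine-like cells and 2806 in Müller-like cells. Amacrine-like cells (1906) were those with Gad1, Gad2 or Slc6a9 and at least 2 of 4 further amacrine genes, and Müller-like cells (1266, of which 11 also met the ON bipolar rule) had at least 4 of 8 Müller glia genes. A UMI of Gngt1, a rod gene, was seen in 30.6% of ON bipolar cells against 23.2% and 23% in these classes, and in 18.4%, 8.95% and 13.4% after thinning.

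**Figure D1:**
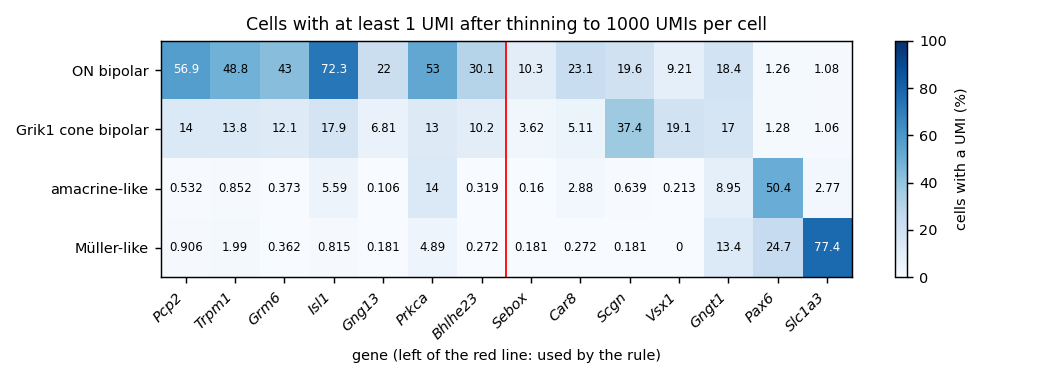
Share of cells, in percent, with at least 1 UMI of each gene after every cell was thinned to 1000 UMIs, in ON bipolar cells, cells of the Grik1 cone bipolar class, amacrine-like cells and Müller-like cells. Genes left of the red line chose the ON bipolar cells. To its right, Sebox and Car8 were most frequent in ON bipolar cells (10.3% and 23.1%), Scgn and Vsx1 in the Grik1 class.

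The label says that most of these cells were rod bipolar cells, and Scgn, a calcium-binding protein of cone bipolar cells that the rule did not use, was seen in 30.3% of them. Cells without Scgn held more of the rod bipolar genes. Sebox averaged 178 CPM (UMIs of the gene scaled to a common library total) in ON bipolar cells without Scgn and 23 CPM in those with it, and Vstm2b 235 against 71.5 CPM, each higher without Scgn in 11 of 11 mice. Prkca, which helped to choose the cells, averaged 2260 and 556 CPM. Vsx1, a transcription factor of cone bipolar types, averaged 53.0 CPM without Scgn and 381 CPM with it, and was higher with Scgn in 11 of 11 mice. The adhesion gene Slitrk5 averaged 27.0 and 105 CPM and went the same way in 11 of 11 mice. Several other genes of cone bipolar types did not follow Scgn. Cpne9 averaged 104 CPM without Scgn and 51.6 CPM with it and was higher without it in 9 of 11 mice, as Lrrtm1 was, and Serpini1 in 8. Lhx4 (270 and 295 CPM) and Nnat (154 and 162 CPM) were about level. The Scgn-positive share was 44.0%, 35.5% and 29.7% in the control mice, 27.8%, 28.8% and 25.8% in the STZ mice, 19.0% and 31.9% on the ω-3 diet and 27.0%, 29.2% and 42.6% on the ω-6 diet. After thinning, these shares became 14.1%, 16.0% and 12.2% in control mice and 10.0%, 23.6% and 20.2% in STZ mice, and the groups overlapped. The control shares lay above the STZ shares before thinning and not after it.

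The 15 genes with the largest fold of summed CPM over the other cells included 5 that are neither in the rule nor overlap a gene of the rule. These were Il1rap (21.8-fold, 90.2 against 4.15 CPM), Sebox (16.2-fold), Car8 (15.2-fold), Gpr179 (14-fold, 245 against 17.4 CPM), which encodes the orphan receptor that anchors the mGluR6 complex, and Trnp1 (12-fold, 877 against 73.0 CPM). Over the Grik1 cone bipolar class alone, the folds of these 5 genes were smaller, from 2.55 (Trnp1) to 3.35 (Car8). Among the 15, 3 overlap a marker on the opposite strand. Pet100 (chr8:3621548-3625848, plus strand) covers Pcp2 (chr8:3623371-3625545, minus strand), Chtf18 (chr17:25718926-25727419, minus strand) overlaps the end of Gng13 (chr17:25717171-25719406, plus strand), and the antisense transcript Gm12660 (chr11:50851332-50852582, minus strand) lies inside Grm6 (chr11:50850685-50866208, plus strand), all in GRCm38. Their folds over the other cells were 19.8, 24.3 and 21.1. The strand used in counting is not given in the sources used here, so these genes and their partners may share reads and are uncertain as genes of their own.

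Cells at the threshold of the rule held Otx2 about as often as those well inside it, and the transcription factor Prdm8 less often. The 361 cells with exactly 3 markers held Otx2 in 71.7% and Prdm8 in 11.6%, at a median of 2522 UMIs. The 512 cells just outside, with 2 markers and otherwise meeting the rule, held them in 65.4% and 11.3%, at a median of 2332 UMIs. All 7 markers were seen in 151 cells, which held them in 74.2% and 74.8%, at a median of 3766 UMIs.

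Some libraries and single cells stood apart. Median UMIs per ON bipolar cell were 1943.5 to 2370 in STZ mice, below the 2853 to 3757 of control mice and the 2693 to 3752.5 on the diets. The summed UMIs of ON bipolar cells per mouse ran from 185855 to 517696. In control mouse 2, 1 cell held 150 of 150 UMIs of Nefl and 75 of 75 of Sncg, genes of ganglion cells, and the summed level of 5 ganglion cell markers was 866 CPM there against 9.98 to 33.7 CPM in the other 10 mice. In ω-6 mouse 1, 1 cell held 86 of 111 UMIs of Glul, a Müller glia gene, and the summed level of 8 Müller glia markers was 961 CPM against 120 to 347 CPM in the others. Results were therefore also computed without the 14 cells that held several ganglion or Müller genes. The summed level of 12 rod markers was 777 to 1513 CPM in control, 1526 to 1729 CPM in STZ, 3690 and 4394 CPM on the ω-3 diet, and 1597, 1627 and 3748 CPM on the ω-6 diet. Onecut1 and Lhx1 (horizontal cells), Cdh5 (endothelium), C1qa and P2ry12 (microglia) and Gfap (astrocytes) were at 0 in the ON bipolar cells of all 11 mice. Of 18842 barcode sequences, 1154 occurred in more than 1 library, 118 ON bipolar cells carried such a barcode, and 4 barcodes were shared by ON bipolar cells of 2 libraries.

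ON bipolar cells made up a larger share of the captured cells in control mice than in the other groups. The share was 12.5%, 11.8% and 9.91% in control mice (11.4% ± 1.36, SD, n = 3) and 5.64%, 5.73% and 5.54% in STZ mice (5.63% ± 0.0952, SD, n = 3), without overlap. It was 4.85% and 5.39% on the ω-3 diet (5.12% ± 0.38, SD, n = 2) and 3.40%, 5.53% and 3.50% on the ω-6 diet (4.14% ± 1.2, SD, n = 3), and the diets overlapped. Shallow cells have fewer chances to show 3 markers. With every cell thinned to 1000 UMIs, the share was 8.52%, 11.6% and 9.18% in control mice and 6.13%, 6.68% and 7.24% in STZ mice, so the groups still did not overlap but lay closer. Thinning left out 741 shallower cells in control mice and 2624 in STZ mice. These shares were not tested, because the markers that define them differed between the groups.

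The 7 markers did not move together between the groups, as the plot of their levels shows. Pcp2, a small protein that binds the G protein of the cascade, was 3016, 3061 and 3835 CPM in control mice, 1402, 1896 and 1875 CPM in STZ mice, 852 and 1151 CPM on the ω-3 diet, and 1692, 1669 and 1313 CPM on the ω-6 diet. Each control mouse was higher than any other mouse. Gng13, the gamma subunit of that G protein, was 723, 804 and 919 CPM in control mice and 170, 274 and 257 CPM in STZ mice. The channel gene Trpm1 went the other way, at 784, 917 and 831 CPM in control mice and 1668, 2022 and 1962 CPM in STZ mice. Prkca was 862, 1114 and 1122 CPM in control and 1934, 2695 and 1848 CPM in STZ mice, and Bhlhe23, a transcription factor of rod bipolar cells, 226, 253 and 302 CPM in control and 524, 462 and 517 CPM in STZ mice. Grm6 was 714, 497 and 724 CPM in control and 693, 765 and 629 CPM in STZ mice, and the groups overlapped. Isl1, a transcription factor of ON bipolar cells, was 1378, 1471 and 2029 CPM in control and 1853, 2190 and 2309 CPM in STZ mice, and the groups overlapped too.

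A marker that chose the cells is itself raised by that choice, so each was also read in cells chosen by 3 or more of the other 6. The log2 ratio of STZ to control was then -0.62 for Pcp2, -1.58 for Gng13, 1.62 for Trpm1, 1.36 for Prkca, 1.26 for Bhlhe23, 0.72 for Isl1 and 0.41 for Grm6. The mice of the 2 groups overlapped for Grm6 alone among the 7. Between 897 and 1128 cells entered these ratios. Pet100, the neighbour on the other strand of Pcp2, was 2594, 2605 and 3322 CPM in control and 1106, 1545 and 1441 CPM in STZ mice. Chtf18, on the other strand of Gng13, was 446, 506 and 586 CPM in control and 127, 154 and 142 CPM in STZ mice. Gm12660, inside Grm6, was 290, 208 and 400 CPM in control and 104, 106 and 101 CPM in STZ mice, while Grm6 itself overlapped between the groups. Since these 3 may share reads with genes that chose the cells, their values are a description too.

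**Figure D2:**
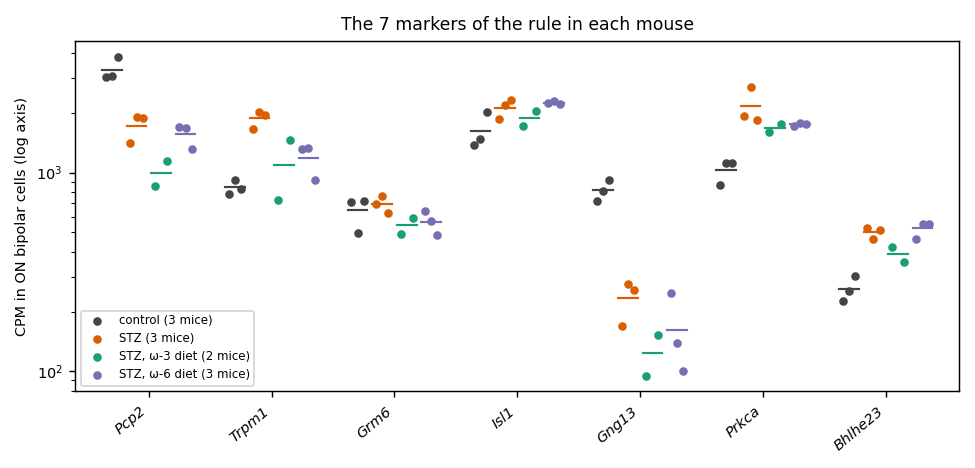
Level in ON bipolar cells, in CPM on a log axis, of the 7 marker genes that chose the cells, 1 dot per mouse with the group mean as a line. Pcp2 and Gng13 were higher in the 3 control mice than in any other mouse, Prkca and Bhlhe23 lower, and the groups overlapped for Grm6.

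Phase I ROP was compared with control on counts summed over the ON bipolar cells of each mouse. By the quasi-likelihood test of edgeR, 2125 of 6167 tested genes passed a Benjamini-Hochberg adjusted p of 0.05, which is 34.5%. Higher in STZ were 1036 genes (16.8%) and lower 1089 (17.7%). The mice of the 2 groups did not overlap in 2967 genes (48.1%), and the median log2 fold change of all tested genes was 0.04. DESeq2 called 1555 genes (691 higher, 864 lower). Counts of list members below are to be read against these shares, and no list was tested as a set. On simulated counts for this comparison with 200 genes changed, the edgeR test found 87.6% of genes changed 4-fold and 26.6% of those changed 2-fold. Many more genes were called in the data, so these rates need not hold for them.

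Genes of the mGluR6 cascade outside the rule were level or higher in STZ. Of 9 such genes, 7 passed the filter on low counts, 3 rose, none fell, and the median was 0.69. Gnao1, the G protein alpha subunit that mGluR6 activates, was 923, 1298 and 1198 CPM in control and 2150, 2840 and 2136 CPM in STZ mice, without overlap (log2 fold change 1.15 ± 0.185, SE, adjusted p = 0.000364). Gpr179 was 78.1, 146 and 158 CPM in control and 220, 318 and 295 CPM in STZ mice (1.22 ± 0.267, adjusted p = 0.00319). Rgs9bp, which anchors a regulator that shuts the G protein off, was 39.1, 26.8 and 36.6 CPM in control and 162, 106 and 86.8 CPM in STZ mice (1.87 ± 0.360, adjusted p = 0.00134). These 3 genes separated the groups completely. Gnb3, the beta subunit of the G protein, was 1135, 1009 and 1426 CPM in control and 1025, 1328 and 1288 CPM in STZ mice (0.13, adjusted p = 0.578), and the groups overlapped. Of the 3 subunit genes of the G protein, Gnao1 was higher in STZ and Gnb3 overlapped. Gng13 was lower, but it chose the cells and may share reads with Chtf18, so it was not tested. Rgs7 (0.09), Rgs11 (0.69) and Gnb5 (0.16), further members of the shut-off complex, did not pass. Nyx, which helps place the channel, was too low to test, at 11.2, 2.98 and 8.45 CPM in control and 19.3, 38.5 and 41.7 CPM in STZ mice, and Lrit3 was at 0 in all mice.

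Tested transcription factors of bipolar cells were level or higher in STZ. Of 20 outside the rule, 17 were tested, 10 rose and none fell, with a median log2 fold change of 0.97 and positive values for all 17. Irx5, of the same list but too low to test, went the other way. It averaged 13.9 CPM in control and was at 0 in STZ mice, at least 3.5-fold lower with 3 counts over the STZ group as the floor. Otx2, which is needed for bipolar and photoreceptor fate, was 555, 456 and 518 CPM in control and 944, 1025 and 952 CPM in STZ mice (1.03 ± 0.152, adjusted p = 0.000184). No STZ mouse reached down to a control mouse. Six3 was 142, 116 and 110 CPM in control and 435, 496 and 319 CPM in STZ mice (1.85 ± 0.222, adjusted p = 3.72e-05). Neurod1 was 153, 62.5 and 152 CPM in control and 331, 433 and 358 CPM in STZ mice (1.70 ± 0.269, adjusted p = 0.000325). Further factors that passed, named after their values were seen, were Prox1 (1.27), Crx (1.41), Prdm8 (0.97), Lhx4 (1.2), Vsx1 (1.24) and Nfia (0.84). The calls of Vsx1 and Nfia were the weak ones, as Vsx1 was lost without STZ mouse 1 (1.10) or 2 (1.02), and Nfia without STZ mouse 1 (0.83) or 3 (0.67) or control mouse 2 (0.67) or 3 (0.66). Sebox, the rod bipolar homeobox gene, was 126, 128 and 135 CPM in control and 119, 149 and 142 CPM in STZ mice (0.17, adjusted p = 0.596), and Neurod4 (0.11) did not pass either.

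Crx and Neurod1 are also made in rods, and some rod markers were higher in STZ. Of 12 rod markers 10 were tested, 3 rose, Prph2 and Rp1 among them, none fell, and 3 of the 10 had negative values. In cells with no UMI of 6 photoreceptor genes, 10 of 15 tested transcription factors rose, and with every cell thinned to 1000 UMIs, 9 of 12. Of the mGluR6 cascade genes outside the rule, 2 of 6 tested rose in cells without those UMIs and none fell (median 0.57). Rgs9bp was not among these 6. The part of rod RNA and depth in the single genes was not tested further.

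**Figure D3:**
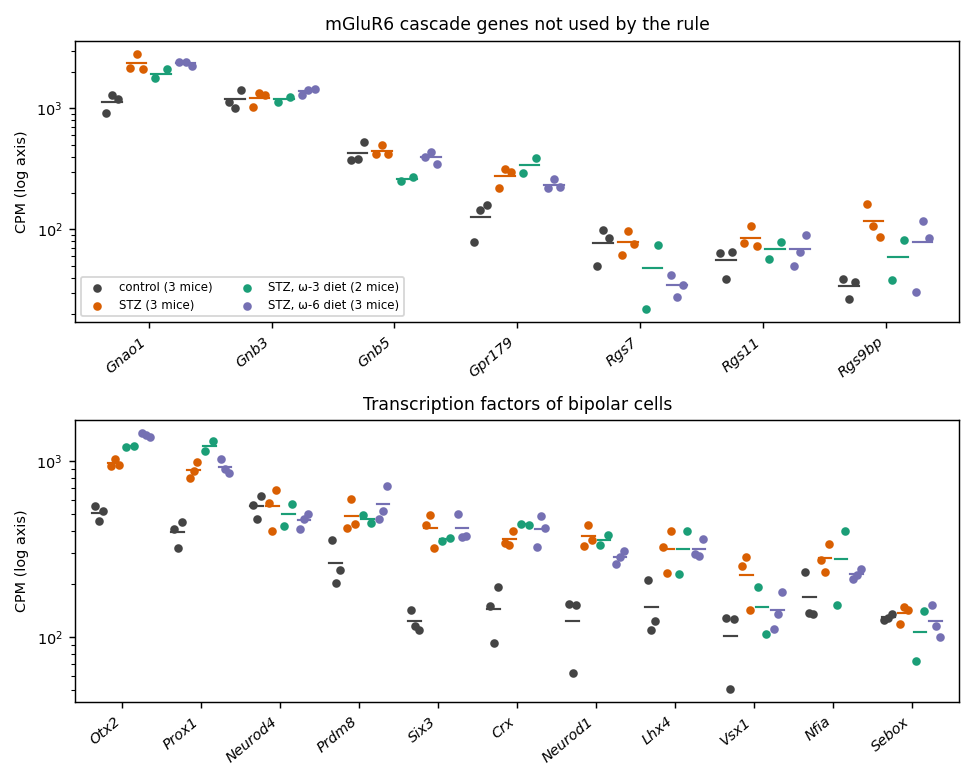
Levels in ON bipolar cells, in CPM on log axes, of mGluR6 cascade genes outside the rule (top) and of transcription factors of bipolar cells (bottom), 1 dot per mouse with the group mean as a line. Gnao1, Gpr179, Otx2 and Six3 were lower in the 3 control mice than in any other mouse, while Gnb3 and Sebox overlapped between control and STZ.

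Genes of the ribbon synapse, the structure from which bipolar cells release glutamate, were partly higher. Of 22 genes 17 were tested, 6 rose and none fell, with a median of 0.61. Without STZ mouse 1, 3 of 20 rose, and without STZ mouse 3, 5 rose and 1 fell. Ctbp2, whose product RIBEYE builds the ribbon, was 47.4, 44.7 and 50.7 CPM in control and 166, 202 and 142 CPM in STZ mice (1.92 ± 0.285, adjusted p = 0.000204), without overlap. Cacna1f, the calcium channel at the ribbon, was 22.3, 29.8 and 31.0 CPM in control and 53.9, 62.6 and 59.0 CPM in STZ mice (1.16 ± 0.385, adjusted p = 0.029). Its call was lost in 10 of 18 other settings, whichever mouse was left out included (adjusted p 0.0124 to 0.134, log2 0.87 to 1.62). Sv2b (1.14), Syt1 (0.73), Cacna2d4 (0.80) and Syp (0.44) also rose. Of these Cacna2d4 was lost without STZ mouse 1 (0.64), and Syp without any 1 of the 6 mice (0.38 to 0.43). The complexin Cplx3 was 1032, 774 and 1136 CPM in control and 678, 915 and 747 CPM in STZ mice (-0.23, adjusted p = 0.31). Snap25, a fusion protein of synaptic vesicles, was 700, 741 and 744 CPM in control and 693, 693 and 736 CPM in STZ mice (0.06, adjusted p = 0.787). Both overlapped between the groups.

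Inhibitory receptors, through which amacrine cells act on bipolar terminals, had 8 of 12 genes tested, of which 2 rose and none fell (median 0.49). Gabrr1, a subunit of the GABA-C receptor of bipolar terminals, was 271, 313 and 279 CPM in control and 378, 486 and 396 CPM in STZ mice (0.64 ± 0.181, adjusted p = 0.0136). The call of Gabrr1 was lost without STZ mouse 2 (0.50), control mouse 1 (0.53) or control mouse 3 (0.57).

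Genes of neurite and synaptic adhesion had 11 of 18 genes tested, with 6 higher and none lower (median 0.83). Nrxn3, a presynaptic adhesion protein, was 458, 319 and 499 CPM in control and 824, 847 and 972 CPM in STZ mice (1.15 ± 0.176, adjusted p = 0.000248). Dscaml1, which spaces cells and neurites, was 78.1, 38.7 and 81.7 CPM in control and 216, 168 and 174 CPM in STZ mice (1.58 ± 0.294, adjusted p = 0.00104). Both separated the groups in each mouse. Lrrtm4 (1.3), Cadm1 (0.83), Cntn1 (0.63) and Ncam1 (0.49) rose as well, but each lost its call when at least 2 of the 6 mice were left out singly. Lrrtm4 was lost without STZ mouse 2 (1.14) or 3 (1.13) and in cells without rod RNA (0.37, adjusted p = 0.576). Cadm1 was lost without STZ mouse 2 (0.55) or control mouse 1 (0.70) or 3 (0.65). Ncam1 was lost without STZ mouse 1 (0.39) or 3 (0.43) or control mouse 1 (0.41) or 3 (0.38), and Cntn1 without any 1 of the 6 (0.45 to 0.66). In cells without rod RNA, 6 of 11 tested genes of the list rose. Without STZ mouse 2 or 3 or control mouse 1 or 3, 3 genes of the list rose.

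Genes of the respiratory chain were lower in STZ. All 72 nuclear-encoded subunits were tested, 54 fell and none rose, with a median of -1.06, against 17.7% of all tested genes that fell. Their summed level was 31574, 28004 and 32781 CPM in control and 13654, 14118 and 15506 CPM in STZ mice. Cox4i1, a subunit of cytochrome c oxidase, was 1523, 1224 and 1570 CPM in control and 582, 655 and 611 CPM in STZ mice (-1.13 ± 0.156, adjusted p = 0.000123). The complex I subunit Ndufb6 was 243, 223 and 282 CPM in control and 53.9, 43.3 and 45.1 CPM in STZ mice (-2.28 ± 0.262, adjusted p = 2.79e-05). Every control mouse was far above each STZ mouse in these genes. Ndufa11 (-1.85, adjusted p = 9.02e-05), of the same complex, fell too. Cox8a, with 1481, 1370 and 1567 CPM in control and 921, 1016 and 1097 CPM in STZ mice, moved least of the 4 named (-0.44, adjusted p = 0.0317), and its call was lost in 8 of 20 other settings (adjusted p 0.00855 to 0.672), among them without any 1 STZ mouse (-0.42 to -0.53), control mouse 1 (-0.50) or control mouse 3 (-0.45).

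The 13 proteins encoded in the mitochondrial genome went the same way, with 11 lower, none higher and a median of -1.01. Their summed level was 71264, 67412 and 72626 CPM in control and 51194, 20216 and 29001 CPM in STZ mice, so STZ mouse 1 lay closer to control than the other 2 STZ mice. mt-Cytb, cytochrome b of complex III, was 11031, 11419 and 11528 CPM in control and 7081, 2238 and 3504 CPM in STZ mice (-1.3 ± 0.311, adjusted p = 0.0052), and -1.92 without STZ mouse 1. mt-Nd4l was 388, 408 and 476 CPM in control and 177, 144 and 111 CPM in STZ mice (-1.46 ± 0.214, adjusted p = 0.000183). Without STZ mouse 3, 6 of the 13 passed.

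Transcript length and depth moved with these lists. Tested genes were split into 4 equal groups by their longest annotated transcript. The shortest group (up to 1941 bases) had a median log2 fold change of -0.58, with 31 genes higher and 556 lower, and the longest group (from 5077 bases) a median of 0.53, with 457 higher and 110 lower. Of the 72 nuclear-encoded respiratory genes 57 lay in the shortest group, as did all 13 mitochondrial genes. With cells thinned to 1000 UMIs, 25 of 58 tested nuclear-encoded genes and 3 of 13 mitochondrial genes fell, and none rose. Without cells holding rod RNA, 39 of 71 and 7 of 13 fell. The part of length in the lists was not tested.

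**Figure D4:**
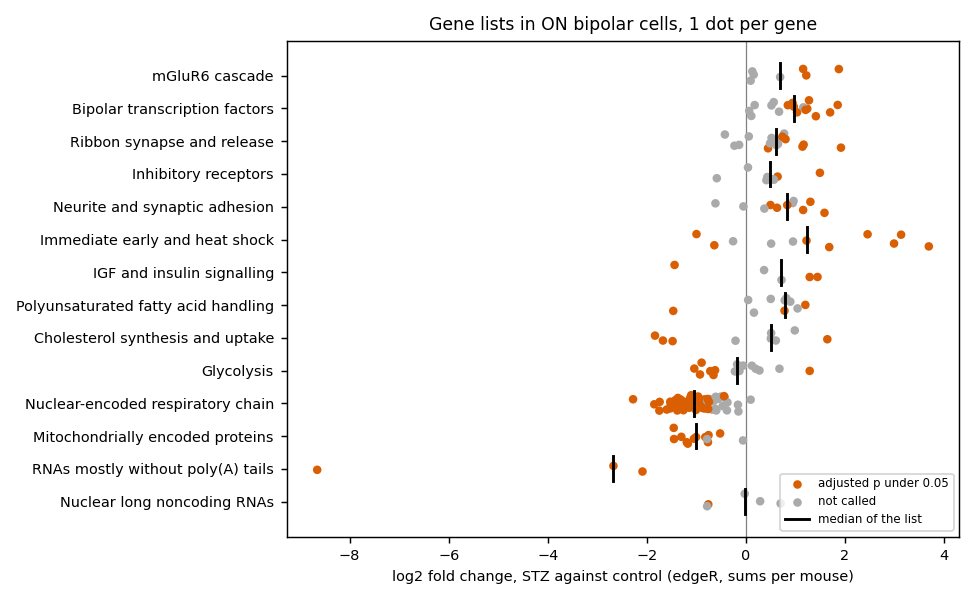
Log2 fold change of STZ against control in ON bipolar cells for each tested gene of 14 lists, 1 dot per gene, orange where the adjusted p was under 0.05, with the median of the list as a black bar. The lists of transcription factors and of the mGluR6 cascade lie right of 0, and the respiratory chain and mitochondrial proteins left of 0, with medians of -1.06 and -1.01. The dot near -9 is Rn7sk, which had no UMI in the STZ mice, so its position is a fitted value that depends on the prior count.

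Glycolysis genes moved less uniformly, with 1 higher and 6 lower of 15 tested (median -0.18). Gapdh was 4653, 4484 and 5196 CPM in control and 2574, 2566 and 2973 CPM in STZ mice (-0.72 ± 0.171, adjusted p = 0.00496), and Slc2a3, a neuronal glucose transporter, fell by 1.04 on the log2 scale (adjusted p = 0.0113), a call lost in cells without rod RNA (-1.16). Hk1, the hexokinase of neurons, was 92.1, 170 and 104 CPM in control and 281, 284 and 271 CPM in STZ mice (1.29 ± 0.252, adjusted p = 0.00152). The groups separated in Gapdh and, in the other direction, in Hk1. Pkm overlapped between the groups (0.12, adjusted p = 0.604). With thinned cells the calls of Gapdh (-0.34) and Hk1 (0.72) were lost (adjusted p over the other settings 0.000173 to 0.283 for Gapdh).

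Structural RNAs that mostly lack poly(A) tails were far lower in STZ, with 3 of 3 tested genes lower. mt-Rnr2, the large ribosomal RNA of mitochondria, was 21570, 19193 and 30546 CPM in control and 4542, 2782 and 3060 CPM in STZ mice (-2.68 ± 0.264, adjusted p = 1.09e-05). mt-Rnr1, the small one, was 4279, 3385 and 5334 CPM in control and 1399, 775 and 667 CPM in STZ mice (-2.09 ± 0.254, adjusted p = 4.13e-05). Rn7sk, a nuclear RNA that holds back transcription elongation, was 117, 179 and 220 CPM in control mice and at 0 in the 3 STZ mice. This is at least 43.3-fold lower, taking 3 counts over the STZ group as the floor. Malat1, a long nuclear RNA, was 1339, 1346 and 1679 CPM in control and 932, 794 and 677 CPM in STZ mice (-0.76 ± 0.168, adjusted p = 0.00325), the single call among 5 tested nuclear long noncoding RNAs, of which 2 fell without STZ mouse 1. Meg3, of the same list, was 234, 476 and 237 CPM in control and 578, 491 and 375 CPM in STZ mice (0.70, adjusted p = 0.0516). It passed in 10 of 20 other settings, among them without control mouse 2 (1.08).

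Immediate early genes and heat shock genes moved in both directions. Of 30, 11 were tested, 6 rose and 2 fell (median 1.22), the 6 being 5 early transcription or growth genes and a cochaperone, and the 2 the chaperones Hspa8 and Hsp90aa1. Klf6, a Krüppel-like transcription factor, was 2.79, 17.9 and 2.82 CPM in control and 108, 81.8 and 101 CPM in STZ mice (3.69 ± 0.537, adjusted p = 0.000175). Control mouse 2 set the mean of that group, and the log2 fold change was 4.97 without it and 5.37 without the 14 cells that held ganglion or Müller genes. Btg2, an antiproliferative gene, was 22.3, 17.9 and 19.7 CPM in control and 108, 168 and 222 CPM in STZ mice (3.13 ± 0.372, adjusted p = 3.49e-05). Jun (2.99), Fos (2.45), Jund (1.22) and the inducible cochaperone Dnajb1 (1.68) were the others. Jun was 2.33 without STZ mouse 1. Fos lost its call without STZ mouse 1 (2.38) or 3 (2.26) or control mouse 1 (2.00), and was 4.50 without control mouse 3 and 1.87 without control mouse 2. Dnajb1 lost its call without STZ mouse 3 (1.28). Hspa8, a constitutive chaperone, was 1780, 1653 and 1603 CPM in control and 682, 847 and 827 CPM in STZ mice (-1.0 ± 0.155, adjusted p = 0.00028), and Hsp90aa1 fell by 0.64 (adjusted p = 0.009). The call of Hsp90aa1 was lost in cells without rod RNA (-0.48). The inducible chaperone gene Hspa1a, named after its values were seen and too low to test, was at 0 in control and averaged 17.7 CPM in STZ mice, at least 6.18-fold higher with 3 counts over the control group as the floor.

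Few genes were tested in the lists of lipid handling and of insulin-like growth factor (IGF) signalling. These lists bear on the diets and on the growth factors of the study, and 34.5% of all tested genes were called. Of 22 genes that make, bind or take up polyunsaturated fatty acids, 10 were tested, 2 rose and 1 fell (median 0.78). Scd2, a stearoyl-CoA desaturase, was 142, 167 and 116 CPM in control and 227, 255 and 201 CPM in STZ mice (0.78 ± 0.232, adjusted p = 0.0175), a call lost without STZ mouse 1 (0.74) or 2 (0.67) or control mouse 1 (0.72) or 3 (0.60). Agpat3, which adds a fatty acid to lysophosphatidic acid, rose (1.2, adjusted p = 0.0146), a call lost without STZ mouse 2 (0.83). Fabp5, a fatty acid binding protein, was 271, 197 and 163 CPM in control and 57.8, 57.8 and 93.8 CPM in STZ mice (-1.47 ± 0.293, adjusted p = 0.00171), without overlap, and its call was lost in cells without Scgn (-0.88). Of the desaturase Fads2, 1 UMI was seen in 1 control mouse and none in the STZ mice.

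Cholesterol synthesis and uptake had 1 higher and 3 lower genes of 9 tested (median 0.50). The synthesis genes Msmo1 (-1.68, adjusted p = 0.00437) and Fdps (-1.84, adjusted p = 0.00994) fell, and Sc5d rose (1.64, adjusted p = 0.019). Msmo1 was -2.26 without STZ mouse 2, and its call was lost in cells without rod RNA (-1.42). Sc5d was 2.26 without control mouse 1, and its call was lost without any 1 of the other 5 mice (1.25 to 1.67).

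In the IGF list 5 of 12 genes were tested, 2 rose and 1 fell (median 0.72). Igf1 was 148, 86.3 and 87.4 CPM in control and 143, 164 and 188 CPM in STZ mice (0.72, adjusted p = 0.0533), with overlap. It passed in 4 of 19 other settings (log2 0.95 without control mouse 1). The receptor gene Igf1r was 41.8, 92.3 and 59.2 CPM in control and 143, 173 and 177 CPM in STZ mice (1.44 ± 0.312, adjusted p = 0.00289), without overlap, and no mouse left out ended its call. Insr, the insulin receptor, rose (1.29, adjusted p = 0.0319) but was lost without any STZ mouse (1.15 to 1.41), control mouse 1 (1.34) or control mouse 2 (0.90). Igfbp4, a binding protein, fell (-1.44, adjusted p = 0.0223), a call lost without STZ mouse 1 (-1.52) or 2 (-1.22), and it was too low to test without control mouse 1 or 3. Vegfa, the growth factor of vessels, was 22.3, 38.7 and 33.8 CPM in control and 61.6, 33.7 and 48.6 CPM in STZ mice (0.71, adjusted p = 0.196). The adiponectin receptor gene Adipor1 was 92.1, 62.5 and 104 CPM in control and 112, 57.8 and 97.2 CPM in STZ mice (0.16, adjusted p = 0.723). Both overlapped between the groups.

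The 10 largest rises among called genes with a mean of at least 50 CPM and no overlap included Klf6, Ccdc177, Btg2, Stom, Ttc28, Frat2, Rnf150, Mycn and Rbp3. Ccdc177 was 41.8, 20.8 and 19.7 CPM in control and 239, 221 and 285 CPM in STZ mice (3.26 ± 0.313, adjusted p = 1.02e-05). Stom, the membrane protein stomatin, was 19.5, 14.9 and 16.9 CPM in control and 139, 130 and 118 CPM in STZ mice (2.98 ± 0.361). Mycn, a proto-oncogene of progenitors, was 11.2, 23.8 and 14.1 CPM in control and 139, 57.8 and 97.2 CPM in STZ mice (2.67 ± 0.456). Ttc28 (2.9), Frat2 (2.89), an inhibitor of GSK3, and the ubiquitin ligase gene Rnf150 (2.76) were further genes that are not of photoreceptors. Frat2 was 3.74 without control mouse 3. With cells chosen by 2 or more markers, Ttc28 was 1.82 and Rnf150 1.64.

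Rbp3, a photoreceptor gene whose product carries retinoids between cells, was 8.37, 23.8 and 39.5 CPM in control and 88.6, 149 and 177 CPM in STZ mice (2.61 ± 0.442). The part of free RNA in the level of Rbp3 was not tested.

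The 10 largest falls by the same rule were Rn7sk, Gm26737, Gm42756, Gm37357, T2, Aldh1a3, Coa4, Samd15, Cryzl2 and Tmem30c. Gm37357 (chr1:161811045-161814167, minus strand), a transcript whose kind the annotation leaves unsettled, was 2745, 2882 and 4083 CPM in control and 181, 149 and 72.9 CPM in STZ mice (-4.50 ± 0.273, adjusted p = 1.55e-07). Coa4, an assembly factor of cytochrome c oxidase, was 985, 855 and 510 CPM in control and 46.2, 38.5 and 45.1 CPM in STZ mice (-4.06 ± 0.291, adjusted p = 9.18e-07). T2 was 856, 753 and 395 CPM in control and 38.5, 48.1 and 17.4 CPM in STZ mice (-4.21 ± 0.361, adjusted p = 4.6e-06). The groups lay far apart in these 3. Aldh1a3, which makes retinoic acid, was 67.0, 170 and 81.7 CPM in control and 3.85, 0 and 10.4 CPM in STZ mice (-4.14 ± 0.659), and -5.32 without STZ mouse 3. Samd15 fell by 4.05. Gm26737 (-5.06) and Gm42756 (-4.53) are antisense transcripts whose partners may share their reads. Gm42756 was -5.94 without STZ mouse 2, -3.90 without STZ mouse 3 and -3.81 without control mouse 1. Tmem30c (-3.71) was -5.54 without STZ mouse 1. Cryzl2 was 343 CPM in control mouse 1 against 47.6 and 47.9 CPM in the other 2, and its log2 fold change of -3.82 became -2.28 without that mouse. In the mice on the diets, Gm37357 was 99.8 to 201 CPM and Coa4 32.4 to 50.3 CPM, near the STZ mice and below each control mouse.

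Markers of bipolar types outside the rule were also read. Of 5 tested rod bipolar genes, 2 rose (Vstm2b at 0.94 and Rpa1 at 0.62) and none fell, with a median of 0.46. Both calls were weak. Vstm2b was lost without any STZ mouse (0.88 to 0.94) or control mouse 1 (0.55), and Rpa1 without any STZ mouse (0.54 to 0.63) or control mouse 1 (0.40). Without an STZ mouse the fold changes stayed near those above, and fewer genes passed among all tested (1423 to 1758, against 2125). Of 5 tested genes of ON cone bipolar types, 4 rose and 1 fell. Slitrk5 rose (1.65), a call lost without STZ mouse 3 (1.39), and Kcng4, a potassium channel subunit, was 44.6, 23.8 and 16.9 CPM in control and 77.1, 81.8 and 76.4 CPM in STZ mice (1.54 ± 0.406, adjusted p = 0.00921). The gene that fell, Cpne9, was 591, 35.7 and 155 CPM in control and 27.0, 57.8 and 20.8 CPM in STZ mice, so the groups overlapped. It was -2.84, and -1.45 without control mouse 1, and its call was lost without STZ mouse 3 (-2.57). Among ON bipolar cells without Scgn, 10 of 13 tested transcription factors rose and 51 of 72 respiratory genes fell.

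The diets were compared between STZ mice on ω-6 (n = 3) and on ω-3 (n = 2). edgeR called 0 of 7339 tested genes (0%), and DESeq2 called 0. At an unadjusted p under 0.05 there were 398 genes with edgeR (5.42%) and 172 with DESeq2. The mice of the 2 diets did not overlap in 1581 genes (21.5%). On simulated counts for this comparison, 77.8% of 4-fold and 17.6% of 2-fold changes were found.

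The 6 genes with the smallest p and a mean of at least 50 CPM are therefore given as values that did not pass adjustment. mt-Rnr2 was 3046 and 2442 CPM on ω-3 and 7452, 5114 and 3709 CPM on ω-6 (log2 difference, ω-6 minus ω-3, 0.96 ± 0.190, SE, unadjusted p = 0.000108, adjusted p = 0.399). mt-Co2, a subunit of cytochrome c oxidase, was 6555 and 6490 CPM on ω-3 and 8619, 8175 and 8042 CPM on ω-6 (0.32 ± 0.0676, adjusted p = 0.399). Gm28661, a near-identical pseudogene of mt-Co2 on chromosome 1, followed it (0.36), and their reads may be split between them. Malat1 was 868 and 1176 CPM on ω-3 and 685, 508 and 489 CPM on ω-6 (-0.89 ± 0.190, adjusted p = 0.399). The proteasome subunit gene Psmc6 was 49.0 and 54.0 CPM on ω-3 and 161, 141 and 135 CPM on ω-6 (1.46 ± 0.324, adjusted p = 0.484). Fam193a was 103 and 112 CPM on ω-3 and 34.4, 37.8 and 44.9 CPM on ω-6 (-1.50 ± 0.348, adjusted p = 0.636). None of the 6 overlapped between the diets. mt-Rnr2 and Malat1 passed adjustment with no filter on low counts (0.91 and -0.95) and in thinned cells (0.91 and -1.22).

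No cascade or transcription factor gene passed adjustment between the diets. Of 8 tested cascade genes outside the rule, 3 had an unadjusted p under 0.05 (2 higher and 1 lower on ω-6) and 4 did not overlap. Of 18 transcription factors these counts were 1 and 4, near the shares of all tested genes, which were 5.42% and 21.5%. Gnao1 was 1775 and 2098 CPM on ω-3 and 2415, 2401 and 2256 CPM on ω-6 (0.26 ± 0.117, adjusted p = 0.896). Gpr179 was 291 and 391 CPM on ω-3 and 218, 259 and 225 CPM on ω-6 (-0.57 ± 0.223, adjusted p = 0.852). Otx2 was 1209 and 1223 CPM on ω-3 and 1443, 1402 and 1373 CPM on ω-6 (0.18 ± 0.132). Among the markers of the rule, Pcp2 was 852 and 1151 CPM on ω-3 and 1692, 1669 and 1313 CPM on ω-6, without overlap. Trpm1 was 732 and 1455 CPM on ω-3 and 1317, 1324 and 924 CPM on ω-6, with overlap.

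Mitochondrial and rod genes tended apart between the diets without a call. The 13 mitochondrial proteins summed to 47806 and 47366 CPM on ω-3 and 55851, 56402 and 55517 CPM on ω-6, with a median of 0.22 and 8 of 13 higher at an unadjusted p under 0.05. The median of the 72 nuclear-encoded respiratory genes was 0.21, with 5 such genes, against 5.42% of all tested genes. The 12 rod markers had a median of -0.74, and 8 were lower on ω-6 at an unadjusted p under 0.05. Their summed level was 4394 and 3690 CPM on ω-3 and 1627, 3748 and 1597 CPM on ω-6, so ω-6 mouse 2 lay with the ω-3 mice. The part of rod RNA in the other differences between the diets was not tested.

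Genes of lipid handling had no small p between the diets, which with 3 against 2 mice does not show that they were alike. None of 11 tested genes of polyunsaturated fatty acid handling and none of 8 tested genes of cholesterol synthesis and uptake had an unadjusted p under 0.05. Of these genes 1 did not overlap. Over all tested genes the shares were 5.42% and 21.5%.

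Of the genes the study followed, Igf1 was 128 and 167 CPM on ω-3 and 99.5, 68.0 and 125 CPM on ω-6 (-0.68 ± 0.322, adjusted p = 0.896), without overlap. Igf1r was 147 and 245 CPM on ω-3 and 184, 209 and 270 CPM on ω-6 (0.12 ± 0.274, adjusted p = 0.987), with overlap, and its sign turned in 5 of 19 other settings. Vegfa was 62.6 and 90.0 CPM on ω-3 and 42.1, 42.8 and 54.9 CPM on ω-6 (-0.77 ± 0.370, adjusted p = 0.896). Adipor1 was 106 and 103 CPM on ω-3 and 107, 101 and 94.8 CPM on ω-6 (-0.07, adjusted p = 0.994, with the sign turned in 5 of 17 other settings).

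**Figure D5:**
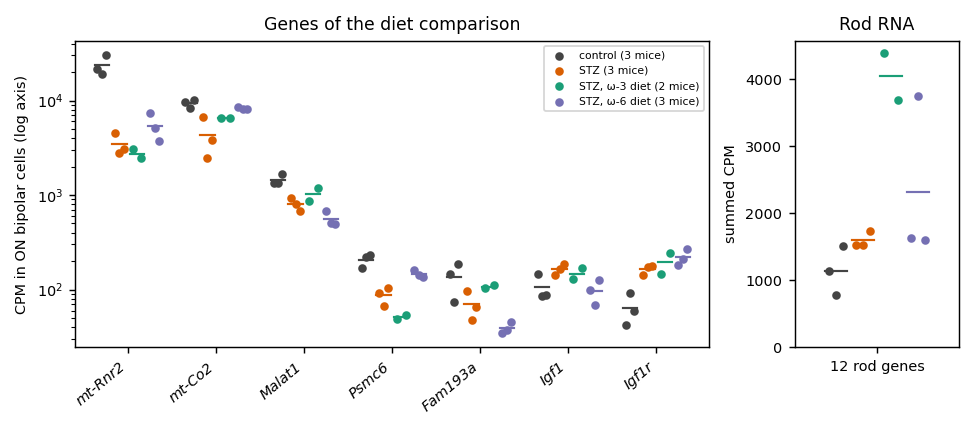
Left, levels in ON bipolar cells, in CPM on a log axis, of genes of the diet comparison in each mouse, with the group mean as a line. Right, summed CPM of 12 rod markers. No gene passed adjustment between the diets. The ω-3 mice and ω-6 mouse 2 had 3690 to 4394 summed CPM of rod markers and the other 8 mice 777 to 1729.

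The class most like ON bipolar cells was that of cone bipolar cells with Grik1 (484 cells, 26 to 68 per mouse, median 2642.5 UMIs), which are mostly OFF types that hyperpolarise to light. The difference between the STZ responses of both classes was tested in 1 model with the mouse as a block. Of 4648 tested genes 0 were called (0%), and 195 had an unadjusted p under 0.05 (4.2%). On simulated counts with 200 genes changed, only 37.0% of 4-fold and 5.87% of 2-fold differences were found here. Differences of such size were thus mostly not detectable in that setting. Gnao1 rose by 1.15 in ON bipolar cells and 1.59 in the Grik1 class, with a difference of -0.32 ± 0.257 (SE, adjusted p = 0.993) in the joint model. Otx2 was 1.03 and 1.06 (difference 0.12 ± 0.213) and Cox4i1 -1.13 and -1.0 (0.03 ± 0.211), neither of which passed. In the Grik1 class alone, 10 of 14 tested transcription factors rose (median 1.38), 30 of 68 nuclear-encoded respiratory genes fell (median -0.83) and 2 of 13 mitochondrial genes fell (median -0.69), where 373 of 2386 tested genes rose and 311 fell. No response was thus shown to be particular to ON bipolar cells.

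Per gene, precision was set by 3 against 3 mice, or 3 against 2, and by 185855 to 517696 UMIs per mouse. Fewer genes were tested and passed in the STZ comparison on fewer or thinned cells, with 940 of 3209 tested called in cells without rod RNA (29.3%), 1401 of 4179 in cells without Scgn (33.5%) and 527 of 1517 in cells thinned to 1000 UMIs (34.7%), against 34.5%.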

How the data were processed

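Single cells of whole P10 retinas were captured by inDrop, a droplet method. Per the study's methods, the authors processed reads with bcbio-nextgen and the umis tools, left out barcodes under 500 reads, mapped with Rapmap to transcripts of GRCm38 and deposited a table of UMI counts per gene and cell (25311 genes, 20067 cells of 11 mice). The strand of counting is not given in the sources used here.

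Cells with more than 300 genes were kept, ON bipolar cells were chosen by their markers, and their counts were summed per mouse. The rule, members, lists and named genes were chosen with earlier results of these data known. Sums were scaled by TMM, filtered with filterByExpr and tested with edgeR 4.0.16 (quasi-likelihood, R 4.3.3), on the groups compared alone, with Benjamini-Hochberg adjustment at 0.05. CPM levels were scaled by TMM over all 11 mice. CPM in cells split by Scgn, in folds over other cells and in cells chosen by the other markers were scaled to summed UMIs alone. The standard error is that of the log2 fold change. DESeq2 1.42.0, leaving out each mouse, thinned cells or sums, other thresholds, a replicate block and a fit of all 4 groups were alternatives. Cells without rod RNA, without Scgn, or without ganglion and Müller genes were added after seeing the data. Scrublet (scanpy 1.11.5) marked 0.359% of cells and is taken not to have worked, so no doublets were removed, and leaving out the top 5% of its scores was an alternative.

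Named genes were the 10 largest rises and 10 largest falls among called genes with a mean of at least 50 CPM and no overlap, up to 4 genes of each list (the most abundant and, where called, the most changed), and for the diets the 6 smallest p with that mean. Other genes were named after their values were seen. The tests were checked on simulated counts with 200 genes changed in each of 5 draws, and the rates given hold for that setting. Promoters were RefSeq sequences of GRCm38.p6 and coordinates those of GENCODE on GRCm38. With 3 against 3 mice, an exact permutation test of 1 value cannot go below p = 0.1, so none is given. Results of some genes are not reported here.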

Additional observations from a re-analysis of the deposited data

How the results depend on the processing

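Against 2125 of 6167 tested genes called between STZ and control, 940 of 3209 passed in cells without rod RNA, 1401 of 4179 in cells without Scgn and 527 of 1517 in cells thinned to 1000 UMIs. Leaving out 1 mouse gave 1423 to 2043. In the diet comparison, the call count of 0 became 19 with the replicate block, 8 with no filter on low counts, 5 in thinned cells and 0 to 1 without a mouse. The calls under the block included mt-Rnr1 and 4 of the 6 named genes (mt-Rnr2, Gm28661, Malat1 and Psmc6). The 8 calls with no filter included the X-linked RNAs Xist (0.87, adjusted p = 0.0293) and Tsix (0.94, adjusted p = 0.0125), both higher on ω-6. Whether the diets differed in the sex of the mice was not tested. In the test against the Grik1 class, 0 became 11 with no filter and 0 to 4 without a mouse. Samples with the same number correlated at 0.0287 to 0.0499 between control and STZ and at 0.0875 and 0.205 between the diets. Samples with other numbers correlated at -0.0455 to 0.00159 and at -0.205 to 0.0955. Deviations from the group mean were correlated. With 2 ω-3 mice these are exact opposites, so the values between the diets mirror each other and are not independent. Same-number pairs were thus the higher ones between control and STZ, though all values there were small. The numbers were not taken as a pairing, and whether they mark one was not settled. With the replicate block, 2221 genes passed between STZ and control. The subsets and thinned cells hold fewer cells or UMIs. The cause of the other changes was not tested.

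The share of ON bipolar cells moved with the rule. It was 9.78% in control, 6.69% in STZ and 4.14% on ω-3 in thinned cells, 7.95%, 3.85% and 3.48% with 4 or more markers, 16.4%, 7.82%, 7.3% and, on ω-6, 6.12% with 2 or more, and 13.3%, 7.04% and 5.79% in cells with more than 500 genes. Signs turned only for genes that were not called. Between STZ and control, Gnb3 ran from -0.026 to 0.22 over the leave-outs, Snap25 from -0.036 to 0.042, with -0.031 in the fit of all 4 groups and -0.026 with no filter, Pkm from -0.053 to 0.18, and Adipor1 from -0.070 to 0.34, with -0.012 in thinned sums. Between the diets, Igf1r ran from -0.18 to 0.55, with -0.016 under the replicate block, -0.51 without rod RNA and -0.29 in thinned cells. Adipor1 was 0.053 with 2 or more markers, 0.029 with 4 or more, 0.048 without the top Scrublet scores, 0.012 without Scgn and 0.080 in thinned sums.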

Other observations

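Lists of other cell types, beside the rod list given above, had few tested genes in the ON bipolar cells. Between STZ and control, the horizontal cell list had 1 lower gene of 2 tested, the Müller glia list 1 higher of 2, the cone list 0 of 2, the amacrine list 0 of 1 and the endothelial list 0 of 1. The cone bipolar list had 2 higher and 1 lower gene of 4 tested. No gene of the ganglion cell, microglia, pigment epithelium, astrocyte and blood lists passed the filter on low counts, and none of 6 genes of cycling cells did.

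Between the diets, Scgn, the calcium-binding protein of cone bipolar cells, was 150 and 231 CPM on ω-3 and 310, 302 and 384 CPM on ω-6, without overlap (log2 difference 0.75 ± 0.243, SE, adjusted p = 0.766). The medians of the 4 length groups of genes ran from 0.15 in the shortest to -0.16 in the longest, the reverse of the order between STZ and control. No cause was tested.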
